A study of Mus musculus with 192 samples.

Results

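The immediate early genes described here are Fos, Fosb, Jun, Junb, Jund, Egr1, Ier2, Ier3, Atf3 and Myc, 10 of the 18460 genes named in the deposited table of transcription start windows. They were measured in C57BL/6 mouse embryonic fibroblasts, primary connective-tissue cells grown on plastic, all of which had received interferon-beta at 100 U/ml for 1 h. The cells carried 1 of 2 labels: 96 cells were naïve and 96 were pretreated, and the labels do not say with what, or for how long, the latter had been pretreated. Cells without interferon are not analysed here, so every comparison is between naïve and pretreated cells that had both been stimulated. Polyadenylated RNA of each cell was read from the 5′ end by scTSS-seq, single-cell sequencing of transcription start sites, in which a read (a tag) marks the capped end of a transcript. For each gene, tags on its own strand were taken from 150-bp windows with the window centre within 1000 bp of the annotated start. This gave 195 of the 943 windows that name a member, out of 553094 windows in all, and 165 of the 195 held a peak in at least 1 cell used.

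Of the 192 cells, 177 were used, 92 naïve and 85 pretreated; 4 naïve and 11 pretreated cells had less than 10% of the median number of tags and were left out. Total tags per cell ran from 305066 to 3857034 in naïve cells and from 502374 to 13174313 in pretreated cells, and no file repeated the values of another. Each deposited profile is 1 cell and no culture, animal or plate is named, so each condition stands as 1 sample: no test is possible, and intervals below cover counting error of tags or of cells only. Fibroblast transcripts were found in both groups, but not every marker was widespread. Of 13 fibroblast markers, 13 had a promoter peak in 1 or more naïve cells. In pretreated cells 12 did, and Thy1 was at 0. In each group 6 of the 13 had such a peak in most cells. Others were rare: Dcn had one in 3 naïve cells and 1 pretreated cell, and Pdgfra in 10 and 6. The matrix gene Sparc had one in all 92 naïve and all 85 pretreated cells. Its pooled level was 29584.5 and 38168 tags per 10000000. The summed level of the 13 fibroblast markers per cell ran from 8621 to 93393 in naïve and from 2321 to 101648 in pretreated cells. The epithelial markers Epcam, Cdh1, Krt8, Krt18 and Cldn4, the endothelial markers Pecam1 and Cdh5 and the leukocyte marker Laptm5 were at 0 in both groups. Krt19, Tie1, Emcn, Ptprc and Adgre1 have no window in the table under these names, so they could only be at 0. The remaining leukocyte markers summed to at most 2414 in a naïve and 880 (1 gene, Cd68) in a pretreated cell, and Kdr reached 1156 in a pretreated cell. The cells differed in another way: mitochondrial peaks were listed in 92 of 92 naïve cells, with 0.759% of tags in peaks, and in 0 of 85 pretreated cells. The part of that difference in the values below was not tested.

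Immediate early genes are transcribed within minutes of a growth factor, cytokine or stress signal and need no new protein synthesis, because the factors that switch them on, among them the serum response factor with its ERK-phosphorylated partners and CREB, already sit in the cell. Many encode transcription factors themselves: Fos and Jun proteins pair to form AP-1, which carries the signal on to later genes. Their transcripts are short-lived, and in fibroblasts they also respond to serum and to the handling of cells.

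The promoters of Fos, Jun and Junb are shown because these 3 genes carry the largest share of the signal or the largest contrasts between the groups. Each line gives the 200 bases before the RefSeq start, read 5′ to 3′ on the gene's strand (build GRCm38.p6): Fos at chr12:85473690-85473889 on the plus strand, Jun at chr4:95052223-95052422 and Junb at chr8:84978749-84978948, both on the minus strand. Capitals mark motif matches: TGACG, the core of a CREB site, and TATAAA, the TATA box, in Fos; TGACATCA, the AP-1-like site, in Jun; and TGACG in Junb.
Fos: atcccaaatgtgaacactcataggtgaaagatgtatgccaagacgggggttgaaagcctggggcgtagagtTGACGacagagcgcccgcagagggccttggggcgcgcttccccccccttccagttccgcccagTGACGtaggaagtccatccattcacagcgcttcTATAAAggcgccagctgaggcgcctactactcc
Jun: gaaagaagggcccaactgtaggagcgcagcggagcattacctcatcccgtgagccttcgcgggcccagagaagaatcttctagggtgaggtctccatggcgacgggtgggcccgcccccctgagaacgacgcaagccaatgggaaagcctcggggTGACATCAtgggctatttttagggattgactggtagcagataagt
Junb: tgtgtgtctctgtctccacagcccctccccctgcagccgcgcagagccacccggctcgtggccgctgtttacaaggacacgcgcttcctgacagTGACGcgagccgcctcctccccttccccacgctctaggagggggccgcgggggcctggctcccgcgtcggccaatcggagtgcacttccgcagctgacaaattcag
TATAAA on the gene's strand lay at -33 to -28 of Fos, counted back from the RefSeq start, and was present in 6.27% of 32851 RefSeq promoters of the same length. TGACG, searched on both strands, lay at -129 to -125 and -66 to -62 of Fos and at -106 to -102 of Junb, and occurred in 15.7% of promoters. The AP-1-like TGACATCA of Jun lay at -45 to -38, and either strand of it occurred in 2.66%. A CArG box, the site of the serum response factor, had no match in this window of the 7 members whose promoters were in the table. These were Atf3, Fosb, Fos, Ier3, Jun, Junb and Jund. Nor did the core of an interferon-stimulated response element (ISRE) have a match there. The GAS element TTCNNNGAA, the full CREB site TGACGTCA, the AP-1 site TGANTCA and the E-box CACGTG had none either. Of all promoters 1.18% held the CArG box, 2.27% the ISRE core and 5.49% the GAS element. The shares were 1.47% for the full CREB site, 5.48% for the AP-1 site and 5.26% for the E-box. All were searched on either strand. At such low shares no match in 7 promoters is the usual outcome and says little about these genes. The GC box GGGCGG, found in 31.05% of promoters, is not capitalised above. On the opposite strand it matched at -74 to -69 of Fos and at -89 to -84 of Jun. Bases further upstream were not searched. Fosb held TGACG at -60 to -56 and the EGR site GCGGGGGCG at -50 to -42, the latter found in 2.36% of promoters, and Atf3 held TGACG on the opposite strand at -7 to -3. Egr1, Ier2 and Myc are named only. The deposited windows are on the mm9 build and the promoters on GRCm38.p6, so no window was placed on these sequences.

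Summed over the 10 genes, naïve cells held 81717 promoter tags and pretreated cells 164467, which is 4019 and 5735 tags per 10000000 of all tags (the pooled level used throughout). The log2 ratio of pretreated over naïve was 0.51 (95% Poisson interval 0.50 to 0.53), close to the median of 0.47 over the 6617 genes that reached a pooled level of 50 in either group. Within that sum the genes parted. Junb, Ier2, Ier3 and Atf3 were higher in pretreated cells by 2-fold or more, Jun was lower by more than 2-fold, Fos, Egr1 and Myc lay between, and Fosb and Jund stayed under the level minimum. Of all genes past the minimum, 33% were at least 2-fold higher and 13.2% at least 2-fold lower, so 4 higher genes of 8 and 1 lower gene of 8 are set against a wide shift of the whole profile. Atf3 reached the minimum in pretreated cells only, which leaves 7 genes past it in both groups. The median log2 ratio of the 8 was 1.06. Scaling by the median of gene ratios in place of total tags lowered every log2 ratio by 0.45 and gave 22.2% of all genes higher and 20.1% lower; under it 3 of the genes (Junb, Ier2 and Atf3) were at least 2-fold higher and 1 (Jun) lower.

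**Figure D1:**
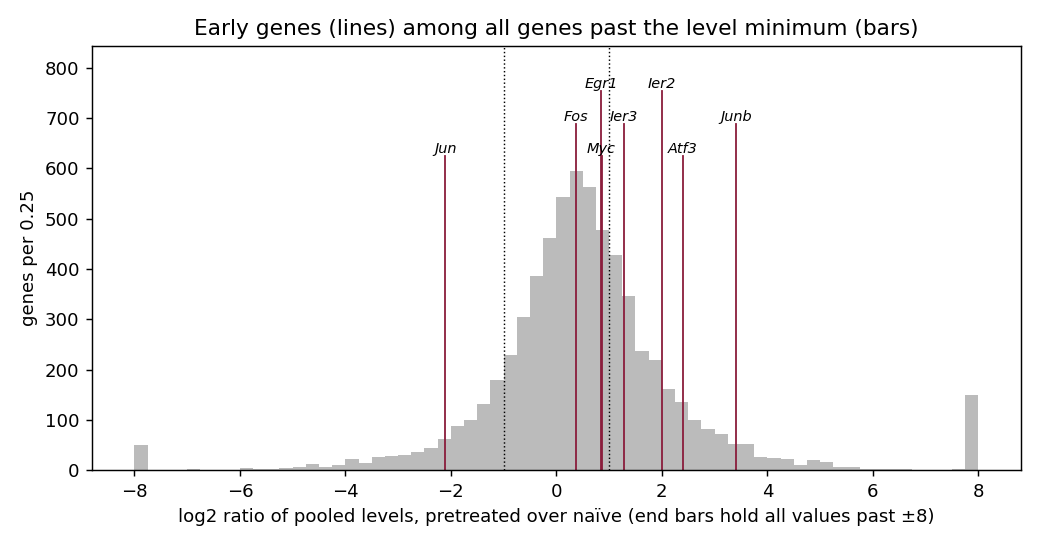
Distribution of the log2 ratio of pooled levels, pretreated over naïve, for the 6617 genes past the level minimum (grey bars, genes per bin of 0.25; the bars at either end collect all values beyond the axis, including genes listed at 0 in 1 group), with the 8 early genes past it as lines and 2-fold as dotted lines. Jun, at -2.10, lies left of the main body and Junb, at 3.40, right of it.

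The composition of the early-gene signal differed between the groups. Jun supplied 40.5% of the summed promoter tags in naïve cells and 6.59% in pretreated cells. Junb went the other way, from 2.12% to 15.7%. The ratio of Jun tags to Junb tags was 19.1 in naïve cells and 0.421 in pretreated cells. Fos kept a like share, 30.9% and 28.1%, whereas Ier3 held 13.7% and 23.2% and Ier2 5.91% and 16.7%. In order of pooled level, naïve cells ran Jun, Fos, Ier3, Ier2, Myc, Junb, Egr1, Atf3, Fosb, Jund, and pretreated cells Fos, Ier3, Ier2, Junb, Jun, Myc, Atf3, Egr1, Fosb, Jund; a 5′ tag count does not scale with transcript length. No 2 neighbours in either order had overlapping counting intervals. From cell to cell, however, the neighbours were not apart: Ier2 and Junb in pretreated cells averaged 1030 ± 1309 and 913 ± 1049 per 10000000 (SD, n = 85 cells each), and Jun and Fos in naïve cells 1668 ± 1797 and 1227 ± 1877 (SD, n = 92 cells each).

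**Figure D2:**
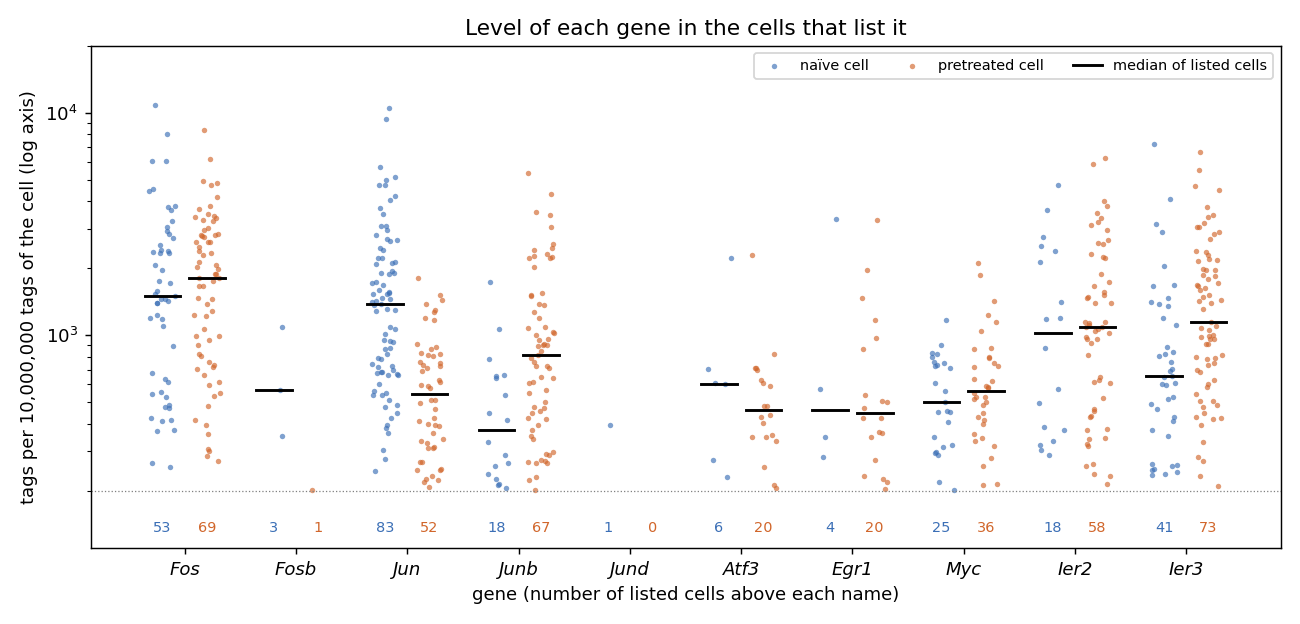
Level of each gene, in tags per 10000000 tags of the cell (log axis), in every cell that lists it; each point is a cell, black lines are medians of the listed cells, printed numbers count them, and the dotted line is the authors' calling minimum of 200. Jun points thin out and sit lower in pretreated cells (52 against 83 cells), while Junb points are more numerous (67 against 18).

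Jun, the AP-1 subunit that can pair with itself or with Fos, was the most widely listed of the genes in naïve cells, with a promoter peak in 83 of 92 (90.2%, exact 95% binomial interval 82.2 to 95.4). Among the listed naïve cells its level ran from 245 over a median of 1381 to 10506 tags per 10000000. In pretreated cells 52 of 85 listed it (61.2%, 49.99 to 71.6), at 207, 546 and 1811 for the lowest, median and highest cell. The ranges overlap, yet no pretreated cell came near the highest naïve cells. Pooled, 33068 naïve tags and 10846 pretreated tags gave levels of 1626 and 378, a log2 ratio of -2.10 (-2.14 to -2.07), 4.30-fold lower in pretreated cells. The difference in its share of cells, pretreated minus naïve, was -29.04 points; of all genes past the minimum, 1.78% had a share at least 20 points lower, and Jun was the only one of the 10 genes to do so. With the tags of listed peaks thinned to a depth of 1122990 tags the difference was -26.7 points. Thinning kept a gene listed if any tag remained, and the calling minimum was not applied again. The value therefore cannot show the part of depth. The log2 ratio stayed between -2.55 and -1.56 over 9 other ways of counting.

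Junb, a Jun relative that activates fewer AP-1 targets and can restrain Jun, showed the opposite picture. A peak was listed in 18 of 92 naïve cells (19.6%, 12.03 to 29.1) and in 67 of 85 pretreated cells (78.8%, 68.6 to 86.9). The lowest, median and highest listed naïve cells held 204.5, 373 and 1728.5 tags per 10000000. In pretreated cells the same values were 200.1, 818 and 5374.5, so the listed cells overlap at the low end and some pretreated cells lie well above every naïve one. Summed tags were 1729 and 25782, levels 85.04 and 899, and the log2 ratio 3.40 (3.33 to 3.47), 10.6-fold higher in pretreated cells. Counted over all windows at any distance from the start, the log2 ratio was 1.43. Junb tags downstream in the gene stood at 183 per 10000000 naïve and 116 pretreated, and 1 naïve cell gave 1554 of the 3718 naïve tags there. Restricted to windows within 50 bp of the annotated start, 7 naïve cells with 534 tags stood against 63 pretreated cells with 23101, that is 26.3 and 806 per 10000000.

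Jund, usually the steady member of the Jun family, was close to absent from its promoter windows. They held 49 tags in 1 naïve cell, in a window centred 800 bp past the start. None of the 85 pretreated cells listed it there, which allows a share of up to 4.25% (exact 95% binomial interval). Further down the gene, Jund had 180 tags in 2 naïve cells and 248 tags in 3 pretreated cells. The table holds 3 promoter windows for Jund, and 1 of them had a sense peak. Fosb, a Fos relative, was listed in 3 naïve cells with 336 tags and 1 pretreated cell with 29 tags, none of them within 50 bp of its start. Most Fosb tags lay further down the gene, at pooled levels of 216 in 26 naïve cells and 263 in 31 pretreated cells.

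Fos, the partner that makes AP-1 bind DNA tightly, was abundant in both groups. It was listed in 53 of 92 naïve cells (57.6%, 46.9 to 67.9) and 69 of 85 pretreated cells (81.2%, 71.2 to 88.8). The listed naïve cells ran from 255 over 1498 to 10830.2 tags per 10000000 and the pretreated cells from 271 over 1817 to 8369.8, and the highest cell was a naïve one. The 2 groups overlap over nearly the whole range. Pooled levels were 1241 and 1611, a log2 ratio of 0.38 (0.35 to 0.40), below the median of all genes; with median-of-ratios scaling it was -0.07, on the other side of 0. The number of listed cells differed. Counted over all cells, with an unlisted cell at 0, the median stood at 447 for naïve and 1283 for pretreated cells. An unlisted cell may hold a level under the calling minimum. The share of cells was 23.6 points higher. Junb, Ier2 and Ier3 also passed 20 points, which makes 4 of the 8 genes past the level minimum, against 28.6% of all genes past it. Thinning the tags of listed peaks to the same depth left out 16 naïve and 2 pretreated cells as too shallow. The differences were then 24.03 points for Fos, 65.04 for Junb, 54.2 for Ier2 and 43.3 for Ier3. As for Jun, peaks were not called again, so these values cannot show the part of depth.

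Atf3, a stress-induced repressor of the ATF family that pairs with Jun proteins, was listed in 6 naïve cells (6.52%) and 20 pretreated cells (23.5%). Its listed levels were 230.4, 605 and 2213 for the lowest, median and highest naïve cell and 205, 458 and 2284 for the pretreated cells, so a cell that listed it held about as much in either group. Pooled levels were 25.6 and 135, a log2 ratio of 2.40 (2.27 to 2.54), and 1.40 when each cell was weighted equally. In naïve cells 520 tags stand behind this value, 23.1% of them from cell 45.

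Ier2, a small nuclear protein of the early response, was listed in 18 naïve cells (19.6%, 12.03 to 29.1) and 58 pretreated cells (68.2%, 57.2 to 77.9). Naïve cells that listed it held 289, 1027 and 4721 tags per 10000000 at the lowest, median and highest, and pretreated cells 215, 1085.5 and 6240.1. As with Atf3, the listed cells overlapped and their medians were close, while the number of listed cells differed. A cell under the calling minimum is not listed, so fewer cells with the transcript cannot be told from a lower level per cell. Pooled levels were 237 and 956, a log2 ratio of 2.01 (1.96 to 2.05) and a 4.02-fold higher level in pretreated cells; over windows at any distance the log2 ratio was 1.26. Ier3, also called IEX-1, which acts on cell survival and dampens NF-kB signalling, was listed in 41 naïve cells (44.6%, 34.2 to 55.3) and 73 pretreated cells (85.9%, 76.6 to 92.5), the most of the 10 genes. Here the listed cells differed too: 234, 652 and 7235 in naïve and 210.4, 1149 and 6677 in pretreated cells. Pooled levels of 549.7 and 1329 gave a log2 ratio of 1.27 (1.24 to 1.30), 2.42-fold higher after pretreatment. With median-of-ratios scaling this became 0.83, under 2-fold.

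Myc, the growth-promoting transcription factor, was listed in 25 naïve cells (27.2%, 18.4 to 37.4) and 36 pretreated cells (42.4%, 31.7 to 53.6). Listed levels were 201, 502 and 1170.3 in naïve and 213, 563 and 2109 in pretreated cells. The ranges start at about the same level and the highest pretreated cells lie above every naïve cell. The pooled levels of 172 and 311 gave a log2 ratio of 0.86 (0.80 to 0.91), short of 2-fold.

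**Figure D3:**
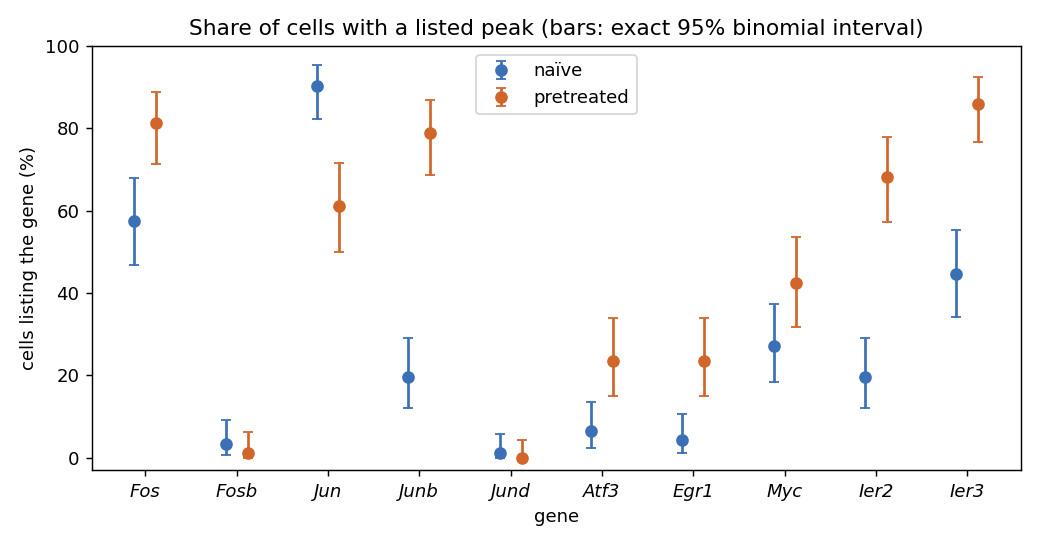
Share of cells with a listed promoter peak for each gene, naïve (n = 92 cells) and pretreated (n = 85 cells), with exact 95% binomial intervals. The intervals of Jun, Fos, Junb, Ier2, Ier3, Egr1 and Atf3 do not overlap between the groups. Jun is the only one of these that is lower in pretreated cells. How many of all genes part in this way was not counted. Of all genes past the level minimum, 28.6% had a share at least 20 points higher in pretreated cells and 1.78% at least 20 points lower.

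Egr1, a zinc-finger factor and a textbook early gene, had few promoter tags: 1292 in 4 naïve cells and 3299 in 20 pretreated cells, at 63.5 and 115 per 10000000 (log2 ratio 0.86, 0.76 to 0.95). Naïve cell 78 alone held 74.1% of the naïve tags. Without the highest cell of each group, cell 78 and pretreated cell 83, the levels were 16.7 and 90.3 and the log2 ratio 2.43. Even these tags were mostly not at the start. The window centred 1 bp past the start had 514 tags in 1 naïve cell and 57 in 1 pretreated cell, and the leading windows of the pretreated cells were centred 494 to 503 bp downstream, in exon 1.

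Nearly all Egr1 tags lay beyond 1000 bp, inside the gene. There, 49185 naïve tags in 87 cells and 36234 pretreated tags in 77 cells gave levels of 2419 and 1263, so that 96.8% and 90.2% of the tags that name Egr1 were downstream, and promoter windows held 2.54% and 8.21%. Counted over all windows, Egr1 was lower in pretreated cells (log2 ratio -0.84), the reverse of the promoter value. The most widely listed window was centred 2052 bp past the start, in exon 2 of 2, with 8556 tags in 43 naïve cells and 448 tags in 2 pretreated cells. Including its neighbours within 50 bp, the counts were 11253 tags in 53 naïve cells and 3896 tags in 25 pretreated cells, or 553 and 136 per 10000000. A window at 3376 bp, in the 3′ UTR, had 9367 tags (13 naïve cells) and 2340 tags (6 pretreated cells). Whether these are capped starts within the gene or 5′ ends of other fragments cannot be told apart from the peak lists.

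**Figure D4:**
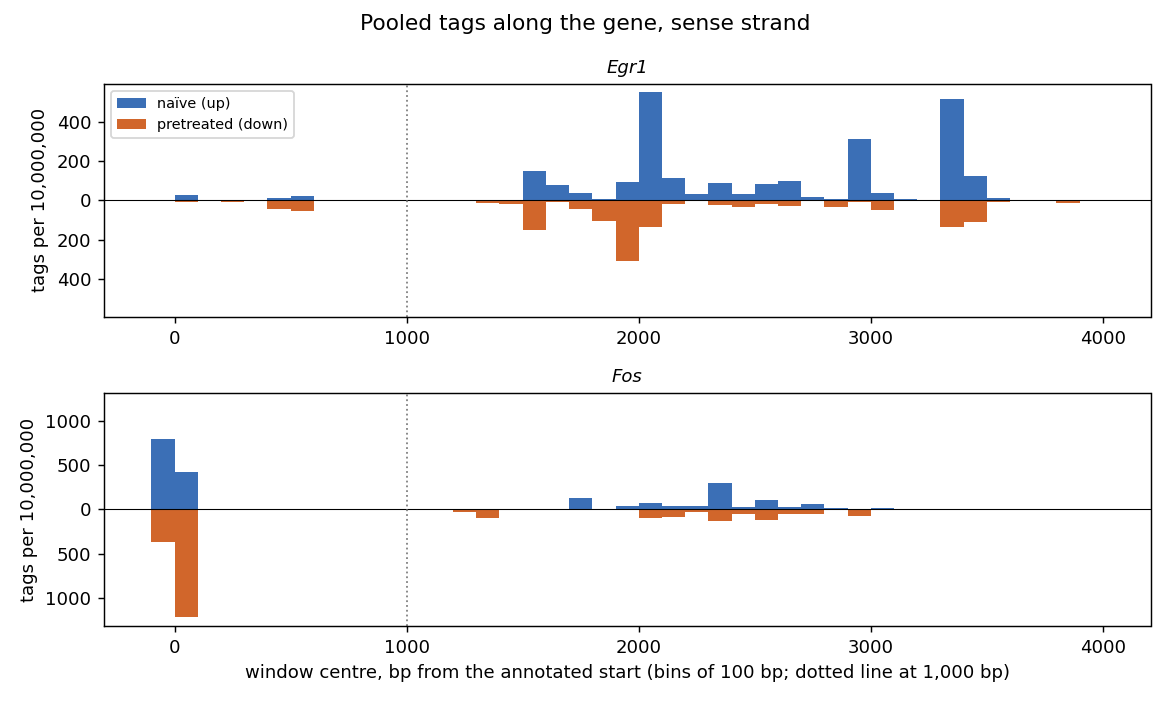
Pooled sense tags per 10000000 along Egr1 and Fos in bins of 100 bp from the annotated start, naïve upward and pretreated downward; the dotted line marks 1000 bp, the limit of the promoter windows. Egr1 tags sit past that line in both groups, while the highest bins of Fos flank the start.

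Tags within the gene body also outnumbered promoter tags for Myc, Fosb and the few tags of Jund in both groups, and for Junb in naïve cells only. They were fewer than promoter tags for Fos, Jun, Ier2 and Atf3 in both groups. Fos had 910 per 10000000 in 54 naïve cells and 845 in 53 pretreated cells downstream, next to its promoter levels of 1241 and 1611. Jun had 182 and 216 and Ier2 61.7 and 69.6. Myc had 228 and 387, next to its promoter levels of 172 and 311. For Jun and Junb, the contrast seen at the promoter did not recur downstream, where Junb stood at 183 and 116. Single cells weigh on these values. Of the 3718 naïve Junb tags downstream, 1554 came from 1 cell, at +1164. Of the 6203 pretreated Jun tags downstream, 1000 came from 1 cell, at +1502. The direction downstream is therefore not read as a difference for either gene. Ier3 had no tags downstream. No 50-base stretch of any of the 10 genes' transcripts was shared with another gene of the GENCODE annotation.

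The position of the start differed little in base pairs and more in which window took the tags. At Fos, the window centred on the annotated start (mm9 chr12:86814766-86814915) held 31.6% of promoter tags in naïve and 75.5% in pretreated cells, listed in 26 and 49 cells. The window 1 bp upstream held 38.975% and 20.7%, and that 5 bp upstream 24.97% and 2.41%. Jun started downstream of its annotated start. Its window at +22 (chr4:94718817-94718966) held 53.8% in naïve and 34.3% in pretreated cells, that at +26 held 19.9% and 12.99%, and that at +33 held 6.92% and 16.3%. At Ier3 the windows at -27 and -28, a single base apart, exchanged the lead: -27 (chr17:35958557-35958706) held 69.5% and 35.1%, and -28 held 15.6% and 43.9%. These pairs of windows overlap almost fully; once windows within 150 bp of each other were joined, 1 site held 99.1% and 99.3% of Fos tags, 98.0% and 92.7% of Jun tags, and 100% and 99.8% of Ier3 tags.

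Junb had the widest difference at the joined site among the 8 genes past the level minimum. Its window at +29 (chr8:87502544-87502693) held 28.8% of promoter tags in naïve cells, 5 cells, and 50.8% in pretreated cells, 35 cells. The window at +31 held 2.08% and 32.9%. A window at +822, inside its single exon, held 28.5% of naïve and 1.53% of pretreated tags. Joined, the site near the start held 30.9% of the few naïve tags and 90.03% of the pretreated tags; the naïve share rests on 1729 tags from 18 cells. The joined leading site of Ier2 held 82.7% and 90.3%, and that of Myc 90.8% and 96.4%. Ier2 kept its window at +1 (chr8:87186676-87186825), which held 75.02% in 9 naïve cells and 78.5% in 43 pretreated cells. Atf3 started at +81 (42.9% and 56.2%) and +79 (12.5% and 30.5%). Myc tags began about 200 bp inside the first exon: its window at +210 (chr15:61817032-61817181) held 65.2% and 74.98%, in 15 and 26 cells, and windows within 50 bp of the annotated start held 320 naïve and 76 pretreated tags.

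**Figure D5:**
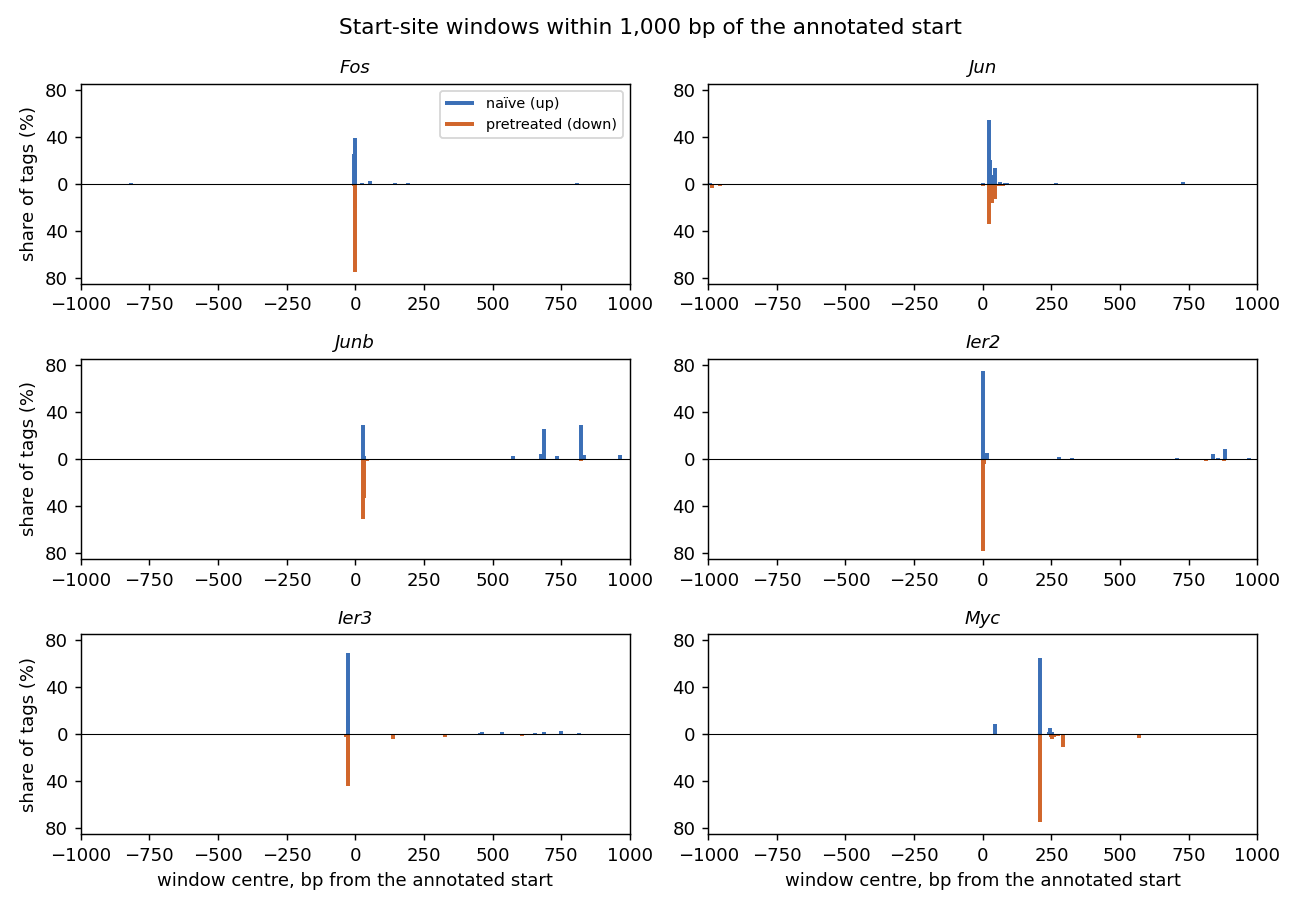
Share of each gene's promoter tags by window centre, in bp from the annotated start, naïve upward and pretreated downward, for the 6 genes with the most promoter tags. The tallest bars of Fos, Jun, Ier2, Ier3 and Myc stand in the same narrow region in both groups, and Junb has naïve tags spread beyond 500 bp that are nearly missing from the pretreated side.

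Tags were tightly placed within peaks, and less so in pretreated cells. The deposited fraction of a peak's tags that lie near its main position had a median of 0.971 over 264 peaks of these genes in naïve cells and 0.941 over 455 in pretreated cells. Over all promoter peaks the medians were 0.956 and 0.897, so the lower value in pretreated cells was not particular to the early genes. Among the genes, Jun had 0.951 and 0.871, Junb 0.934 and 0.895, Fos 0.975 and 0.93, Myc 0.973 and 0.909, Atf3 0.957 and 0.9185, Ier3 0.986 and 0.972, and Ier2 0.9845 and 0.982. Of the genes past the level minimum, Egr1 alone was higher in pretreated cells, 0.9695 and 0.9735.

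Single cells combined the genes in different numbers. A naïve cell listed a median of 2.5 of the 10, from 0 to 6, and 7 of 92 cells listed 5 or more. A pretreated cell listed a median of 5, from 0 to 8, and 52 of 85 listed 5 or more. Promoter peaks of all genes were also more numerous in pretreated cells, 255519 in 85 cells against 184293 in 92 naïve cells. A higher number was thus not particular to the early genes, and how much of theirs is shared with all genes was not tested. Only 2 naïve cells and 1 pretreated cell listed none. The number listed did not follow depth, with Spearman correlations with total tags of -0.09 over 92 naïve and 0.01 over 85 pretreated cells. The summed level per cell had a median of 3450 and a highest value of 13955 in naïve cells, and 4985 and 20142 in pretreated cells, with 0 as the lowest in both.

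Some genes were listed in the same cells. The pairs given are a selection from all pairs of the 8 genes past the level minimum. In naïve cells, 14 of the 18 Junb cells also listed Ier3, against 27 of the 74 others. Atf3 was listed in 5 of the 18 and 1 of the 74, and Ier2 in 8 of the 18 and 10 of the 74. The rare naïve cells with Junb thus often had Ier3, Ier2 or Atf3 as well; they had a median of 1776384 total tags against 2428587 in the other naïve cells. Fos did not follow them, being listed in 11 of the 18 and 42 of the 74. Nor did Jun, in 16 of the 18 and 67 of the 74. Myc went the other way, in 2 of the 18 and 23 of the 74. In pretreated cells Jun was listed in 47 of the 67 Junb cells and 5 of the 18 without Junb, Atf3 in 19 of the 58 Ier2 cells and 1 of the 27 without, and Egr1 in 19 of the 69 Fos cells and 1 of the 16 without. The 2 Jun family genes, which differed in opposite directions between the groups, were therefore often found in the same pretreated cell. Ier2 was listed in 47 of the 67 pretreated Junb cells and 11 of the 18 without, a smaller contrast than in naïve cells. Pretreated cells with Junb had a median of 2727189 total tags against 2173541.5 without, and those with Ier2 2717942 against 2212722. Those with Fos had 2598178 against 2700746. The part of depth in these pairs was not tested, and co-listing was not counted for other genes. Rank correlations of levels over cells stayed low, 0.37 for Fos with Ier2 in 85 pretreated cells, and 0.37 for Ier3 with Junb and 0.46 for Atf3 with Junb in 92 naïve cells; cells at 0 make up much of these.

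The genes whose level over cells most resembled the summed early-gene level were Btg2, Selenok, Rnft1, Ccdc59 and Idh1 in naïve cells, with Spearman correlations of 0.34, 0.32, 0.32, 0.31 and 0.30 among 2905 genes and 92 cells. In pretreated cells they were H2-D1, Btg2, Gadd45g, Hist1h2bc and Tor1aip2, at 0.48, 0.44, 0.44, 0.41 and 0.41 among 4365 genes and 85 cells. Btg2, an antiproliferative gene of the early response itself, stood in both lists. The values share each cell's depth, and they are the highest among the genes ranked.

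Of 12 AP-1 partners outside the 10 genes, 5 passed the level minimum, 2 were at least 2-fold higher and 0 lower, with a median log2 ratio of 0.77; the higher share is near the 33% of all genes, whose median was 0.47. Fosl1, the Fos relative of growing fibroblasts, was at 389 in naïve and 665 in pretreated cells (log2 ratio 0.77). Atf4, the factor of the integrated stress response, was at 273 and 307 (0.17), and Atf2, which pairs with Jun, at 191 and 241 (0.34). Batf2, an interferon-induced partner of Jun proteins, was listed at 0 in naïve cells and reached 62.9 in 14 pretreated cells. Mafk, the second gene past 2-fold and named for that after its value was seen, was at 13.2 and 163.

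Of 10 genes of the MYC network, 5 passed, 1 was higher by 2-fold and 0 lower (1 and 1 with median-of-ratios scaling), with a median of 0.32. Mlx, a partner of the glucose-sensing Mondo proteins, was at 215 and 708 (1.72). Max, the obligate partner of Myc, was at 44.8 and 80.4 (0.84), Zbtb17, which Myc represses through, at 79.1 and 70.1 (-0.17), and Mxd4, a Myc antagonist, at 65.2 and 33.6 (-0.95). Among 5 EGR relatives and corepressors, Egr2 alone passed, at 61.7 and 24.6 (-1.33), 2-fold lower.

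Of 21 genes of the ERK, stress-kinase and SRF pathway 9 passed, 5 were at least 2-fold higher, among them Creb1, Map2k1, Map2k2 and Mapk9, and 0 lower, with a median of 1.83. Map2k1, which encodes the ERK kinase MEK1, was at 34.2 and 205 (2.58), and Creb1, the CREB factor, at 68.02 and 288 (2.08). Nras, an upstream switch, was at 665 and 1072 (0.69) and Mapk3, encoding ERK1, at 202 and 243 (0.27). Map2k2 and Mapk9 were named after their values were seen; 33% of all genes passed the same mark, and 4 of the 9 did not.

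Of 15 feedback inhibitors, 9 passed, 2 were higher (Errfi1 and Dusp1) and 0 lower, with a median of 0.43, close to that of all genes; with median-of-ratios scaling 1 was higher. Nfkbia, the inhibitor of NF-kB, was at 3052 and 4388 (0.52), Btg2 at 1895 and 1907 (0.01) and Btg1, its relative, at 586 and 790.0 (0.43). Errfi1, which blocks the EGF receptor, was at 30.99 and 89.2 (1.52), Ppp1r15a, which ends the stress block on translation, at 141 and 100.3 (-0.49), and Dusp1, the ERK and p38 phosphatase named after its value was seen, at 108 and 247 (1.20). Of 29 other early response genes 17 passed, 2 were higher (Per1 and Ptgs2) and 6 lower (Nr4a1, Klf2, Klf6, Id2, Hes1 and Bhlhe40), with a median of -0.12. Over all genes the shares were 33% higher and 13.2% lower; with median-of-ratios scaling 1 of the 17 was higher and 7 were lower, against 22.2% and 20.1% of all genes. Among them Id3, an inhibitor of basic helix-loop-helix factors, was at 7027 and 4034 (-0.80), Hes1, the Notch target, at 3792 and 1681 (-1.17), Sgk1, a serum-induced kinase, at 2663 and 2456 (-0.12), Klf2 at 71.1 and 11.8 (-2.59) and the clock gene Per1 at 5.26 and 54.4 (3.36).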

How the data were processed

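Single-cell start-site profiles of 192 mouse embryonic fibroblasts were used. Bowtie2, HOMER and the mm9 build are named in the submitters' processing notes, with no versions. Per the file headers, HOMER called 150-bp peaks in its start-site mode, at least 300 bp apart, with at least 200 tags per 10000000 and a local p of 1e-04 over 10000 bp. The signal column is the normalized tag count that the authors deposited, in tags per 10000000, and every one of the 1082504 values gave a whole number of tags, within 0.1 tag, at the depth in its header. Of all listed peaks 5152 (0.476%) have a normalized count under that 200, down to 110, and none of them is a promoter peak of the 10 genes. The deposited fraction per peak gives the tags near its main position, per the file headers. At the median depth of 2305628 and 2650490 tags the calling minimum is 46.1 and 53.0 tags, so a gene under it mostly counts as unlisted. Whether duplicate reads were removed is not given in the sources used here, and intervals therefore cover counting error only.

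Peaks were joined to windows of the deposited start-window table by chromosome and start (within 2 bp). Peaks on the gene's strand within 1000 bp of its start were then kept, and their tags were summed over cells. The window table also holds 384 unnamed per-cell columns, which were not used. Gene strand came from GENCODE vM21 for 18229 of 18460 genes. Levels are tags per 10000000 header tags, 0.5 tag was added in log2 ratios, and a pooled level of 50 in either group and 2-fold served as marks. Intervals are exact Poisson or Clopper-Pearson at 95%. The calculation was run on simulated Poisson sums of each group with known fold changes. These sums held no spread between cells and no calling minimum, so they check the arithmetic only. The 10 genes and all lists were chosen with earlier results of these data known. Named genes are the 10, the 3 highest and the most and least changed of each list, and the 5 most alike in each group; others are named as chosen after their values were seen. Some values of the lists are not reported here. Promoter sequences are from RefSeq, with 7 of the 10 genes matched. Python 3.11.15, numpy 2.4.6, pandas 2.3.3, scipy 1.17.1 and matplotlib 3.10.9 were used. Alternatives changed the cells used, their weight, the scaling, the minimum peak, the distance, the strand and the level minimum.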

Additional observations from a re-analysis of the deposited data

Results flagged for a closer look

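Antisense peaks in the promoter windows of the 10 genes were outside the comparisons: they held 1100 tags in naïve cells and 3043 in pretreated cells, 1.33% and 1.82% of the tags there, against 3.47% and 3.40% over all genes. Cells left out for low depth also listed members: 4 naïve and 9 pretreated cells listed at least 1 of the genes. In the pretreated ones Fos was listed in 9 cells with 45 tags in all and Junb in 5 cells with 32 tags.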

How the results depend on the processing

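The log2 ratio of the summed level, 0.51, stayed above 0 but moved: 0.57 with cells weighted equally, 0.067 with median-of-ratios scaling, 0.60 with tags in peaks as the depth, 0.45 with peaks of at least 500, 0.47 within 200 bp, 0.034 at any distance and 0.62 without the highest cell of each gene in each group. The number of genes at least 2-fold higher stayed between 3 and 5, and that of genes lower was 1 in all settings except without a level minimum, where it was 3 (Fosb and Jund were added). The median difference in the share of cells, 21.4 points against 11.04 over all genes, was 33.9 within 200 bp and 32.4 at a level of at least 200, where fewer genes enter. The median difference in the leading window's share, 3.51 points, was 0.20 with windows joined. Reversed were Fos with median-of-ratios scaling (-0.069), Egr1 within 200 bp (-1.31) and at any distance (-0.84), and Myc within 200 bp (-2.56). Within 200 bp, Egr1 rests on 2 naïve and 3 pretreated cells and Myc on 3 and 1. Jun, Junb, Ier2, Ier3 and Atf3 kept their direction in each of 9 settings. No paired analysis was possible because the number in a label identifies a cell and links it to no cell of the other group. Culture, plate and pretreatment cannot be told apart, and fewer copies per cell cannot be told from a level under the calling minimum.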

Other observations

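Heat shock genes, chaperones that also respond to stress of the cell, gave 0 higher and 3 lower calls. Of 11 genes 7 passed the level minimum, 0 were at least 2-fold higher and 3 lower (Hspa8, Dnaja1 and Hsp90aa1), with a median log2 ratio of -0.49; over all genes 33% were higher and 13.2% lower, with a median of 0.47. With median-of-ratios scaling the calls were again 0 and 3, against 22.2% and 20.1%. Hspa8, the constitutive Hsp70, was at 20549.9 tags per 10000000 in naïve and 10167 in pretreated cells (-1.02), Hsp90ab1 at 18864 and 17910 (-0.07) and Hspd1, the mitochondrial chaperonin, at 7258 and 5179 (-0.49). Hsph1, a relative of Hsp70, had the highest log2 ratio of the list, 0.56, at 153 and 226. Dnaja1, an Hsp70 partner, was listed in 90 naïve and 18 pretreated cells, at 2728 and 114 (-4.58). Hsp90aa1, named after its value was seen, was at 958 in 54 naïve and 64.9 in 14 pretreated cells. The stress-inducible Hspa1a and Hspa1b had no promoter peak in either group. Sequence shared with other genes was checked for the early genes only. The missing peaks of Hspa1a and Hspa1b are therefore not read as absence of their transcripts. The summed level of the list per cell had a median of 46519 in naïve and 33961 in pretreated cells, from 5376 to 96720 and from 518 to 70749.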
